A study of Homo sapiens with 4 samples.

Results

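The genes described here are 43 synaptic and neuronal-type genes, chosen by symbol from the 19390 gene IDs of an RNA-seq time course in which human embryonic stem cells were steered toward blood. They were picked partly because several were high in undifferentiated cells and lost later, so their falls over time describe that choice and support nothing further. All 43 were listed in at least 1 library and 37 in all 4. All samples were the established line H1, wild type. It was sampled undifferentiated (day 0), after 2 days of activinA (40 ng/ml) plus BMP4 (50 ng/ml), and on days 3 and 4, within a second step that began at day 2 in Custom mTeSR1 with VEGF (40 ng/ml) and bFGF (50 ng/ml). Each day is 1 library, with the number of cultures behind it not given, so no difference has a replicate check and no p-value is given. The libraries held 5.04 to 5.49 M counts, and 1 read was worth 0.182 to 0.196 CPM (counts relative to the library total, scaled by the TMM method).

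Neurons release transmitter when a vesicle, held by the SNARE proteins and primed by UNC13 and RIM proteins, fuses with the membrane after a synaptotagmin senses calcium. Across the cleft, adhesion pairs such as neurexins and neuroligins align the vesicle site with receptors that scaffold proteins hold in place. Outside neurons many of these genes are held down by REST, a repressor that binds a sequence called RE1 and recruits chromatin-modifying corepressors. Several of them also work in the secretion, adhesion or cytoskeleton of other cells, so their transcripts alone do not define a neuron.

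RE1 was searched in the start-site windows of the genes because the factor that binds it is itself well expressed in these libraries (values are given with the other gene lists). RefSeq windows on GRCh38.p14, of 250 bases before to 50 after a start site, were found for 30 of the 43 genes, 55 windows in all. The RE1 consensus was searched on both strands, with up to 4 mismatches allowed among its fixed letters. It was matched in 4 of the 55 windows and in 2.65% of all 35116 windows. SYN1 held it with 0 mismatches, as did 4 of all windows (0.0114%). UNC13A, CAMKV and SYT1 each matched with 4 mismatches. The octamer ATTTGCAT, the core letters bound by POU factors, was also searched on both strands. It was held by 1 of the 55 windows, that of LMO3, and by 1.77% of all windows. A match describes letters and is not evidence of binding. The sequences below run 5′ to 3′ on the gene's strand, end at the last base before the start site (UNC13A runs 15 bases further, to the end of its match) and carry the match in capitals. They come from chrX:47619858-47620107 (minus strand), chr19:17688340-17688604 (minus), chr3:49869907-49870156 (minus), chr12:78864524-78864773 (plus) and chr12:16608215-16608464 (minus). The RE1 matches of UNC13A and SYT1 lie in the opposite orientation to the gene.
SYN1: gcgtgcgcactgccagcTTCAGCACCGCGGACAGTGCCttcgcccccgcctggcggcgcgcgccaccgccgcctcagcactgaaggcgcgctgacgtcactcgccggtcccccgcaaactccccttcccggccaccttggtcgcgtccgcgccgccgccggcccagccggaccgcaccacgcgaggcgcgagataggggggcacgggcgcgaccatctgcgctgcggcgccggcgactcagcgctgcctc
UNC13A: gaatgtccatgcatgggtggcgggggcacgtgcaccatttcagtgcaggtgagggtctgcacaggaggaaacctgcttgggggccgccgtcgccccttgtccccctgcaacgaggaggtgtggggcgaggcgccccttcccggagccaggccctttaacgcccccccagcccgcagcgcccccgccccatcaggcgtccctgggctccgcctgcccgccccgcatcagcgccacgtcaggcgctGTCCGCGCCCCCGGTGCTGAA
CAMKV: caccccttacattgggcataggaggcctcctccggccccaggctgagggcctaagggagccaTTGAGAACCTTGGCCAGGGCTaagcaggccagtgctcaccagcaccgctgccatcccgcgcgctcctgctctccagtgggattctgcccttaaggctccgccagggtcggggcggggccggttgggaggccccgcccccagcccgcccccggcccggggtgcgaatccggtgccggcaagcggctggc
SYT1: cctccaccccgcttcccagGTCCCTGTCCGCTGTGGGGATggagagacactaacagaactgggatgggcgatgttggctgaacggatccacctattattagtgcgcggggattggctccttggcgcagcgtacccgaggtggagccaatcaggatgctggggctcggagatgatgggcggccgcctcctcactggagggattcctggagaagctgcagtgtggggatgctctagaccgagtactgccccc
LMO3: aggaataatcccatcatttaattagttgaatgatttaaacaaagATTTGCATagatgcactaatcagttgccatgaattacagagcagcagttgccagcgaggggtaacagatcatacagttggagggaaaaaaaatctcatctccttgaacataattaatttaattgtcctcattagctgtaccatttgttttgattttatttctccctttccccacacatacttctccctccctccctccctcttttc

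Together the 43 genes held 0.272% of all counts at day 0, 0.222% at day 2, 0.140% at day 3 and 0.0865% at day 4. At least 10 CPM was reached by 33 of them at day 0, 20 at day 2, 17 at day 3 and 14 at day 4. A gene is called higher or lower here when 2 libraries lay 2 or more apart in log2(CPM + 1), or 4-fold on that scale, and at least 1 of them had 1 CPM. By that rule 13 of the 43 were lower at day 2 than at day 0 (all genes: 1.93%) and 5 were higher (all genes: 4.63%). At day 4 against day 0, 19 of 42 that passed the filter were lower (all genes: 3.44%) and 1 was higher (all genes: 6.27%). The median difference in log2(CPM + 1) was -0.48 at day 2 and -1.34 at day 4, and over all genes tested it was 0.00 and 0.03. These counts follow in part from how the genes were picked, and both comparisons share the day 0 library.

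**Figure D1:**
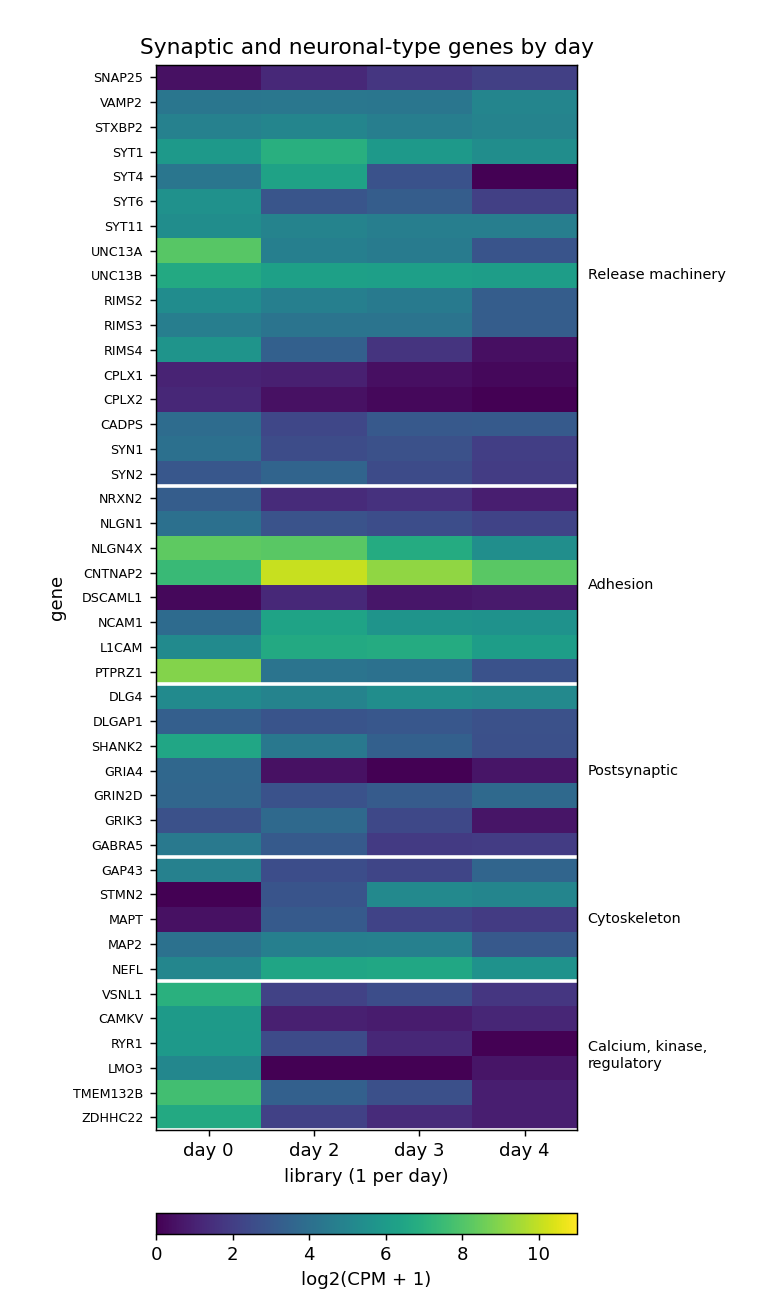
Level of each of the 43 genes as log2(CPM + 1), colour, in the 4 libraries (columns, 1 per day), with genes in rows by role. CNTNAP2 is brightest at day 2 (1063 CPM), PTPRZ1 at day 0 (503 CPM), and the 6 genes of the lowest block are all dark from day 2 on.

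In a mixed group of calcium, kinase, regulatory and membrane genes, all 6 were at least 4-fold lower at day 2 than at day 0 (all genes: 1.93%). That count follows in part from how the genes were picked. TMEM132B, a transmembrane protein gene, measured 205, 9.22, 5.41 and 0.909 CPM on days 0, 2, 3 and 4. It was 22.2-fold lower at day 2 than at day 0 (95% counting interval 16.6 to 30.4) and 225-fold lower at day 4 (96.3 to 695), and 10.1-fold lower at day 4 than at day 2 (4.05 to 32.7). ZDHHC22, of the family of palmitoyl transferases, measured 101, 3.33, 1.55 and 0.909 CPM, 30.4-fold lower at day 2 (18.8 to 52.6). VSNL1, a neuronal calcium sensor, stood at 127, 3.53, 5.02 and 2.36 CPM. Its day 4 level was 2.13-fold under that of day 3 (1.05 to 4.51), while day 4 and day 2 were not apart beyond counting error (1.49-fold, 0.692 to 3.32).

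CAMKV, a kinase-like protein of the calmodulin-dependent kinase family without known kinase activity, measured 63.2, 0.981, 0.773 and 1.27 CPM. Its later values rest on 4 to 7 counts and are not separable from each other. LMO3, a LIM-only transcription cofactor, had 32.8 CPM at day 0, 0 counts at days 2 and 3, and 3 counts at day 4. With a floor of 3 counts put for the 0, LMO3 was 55.7-fold lower at day 2. RYR1, the calcium release channel of skeletal muscle that some neurons also use, measured 58.8, 4.71 and 1.35 CPM on days 0, 2 and 3. It had 0 counts at day 4, with the same floor 108-fold lower than at day 0. Of the skeletal muscle markers, MYOD1, MYF5 and CACNA1S were at 0 counts in every library, while ACTA1, a muscle actin, had 27.2, 65.1, 8.5 and 3.27 CPM. Ordered by the difference in log2(CPM + 1) among 11163 genes of at least 10 CPM at day 0 or day 4, TMEM132B was at place 2 from the lowest, RYR1 at 5, ZDHHC22 at 6, VSNL1 at 10, CAMKV at 14 and LMO3 at 27. From the other roles PTPRZ1 was at place 4, UNC13A at 8 and RIMS4 at 9. These places follow in part from how the genes were picked.

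**Figure D2:**
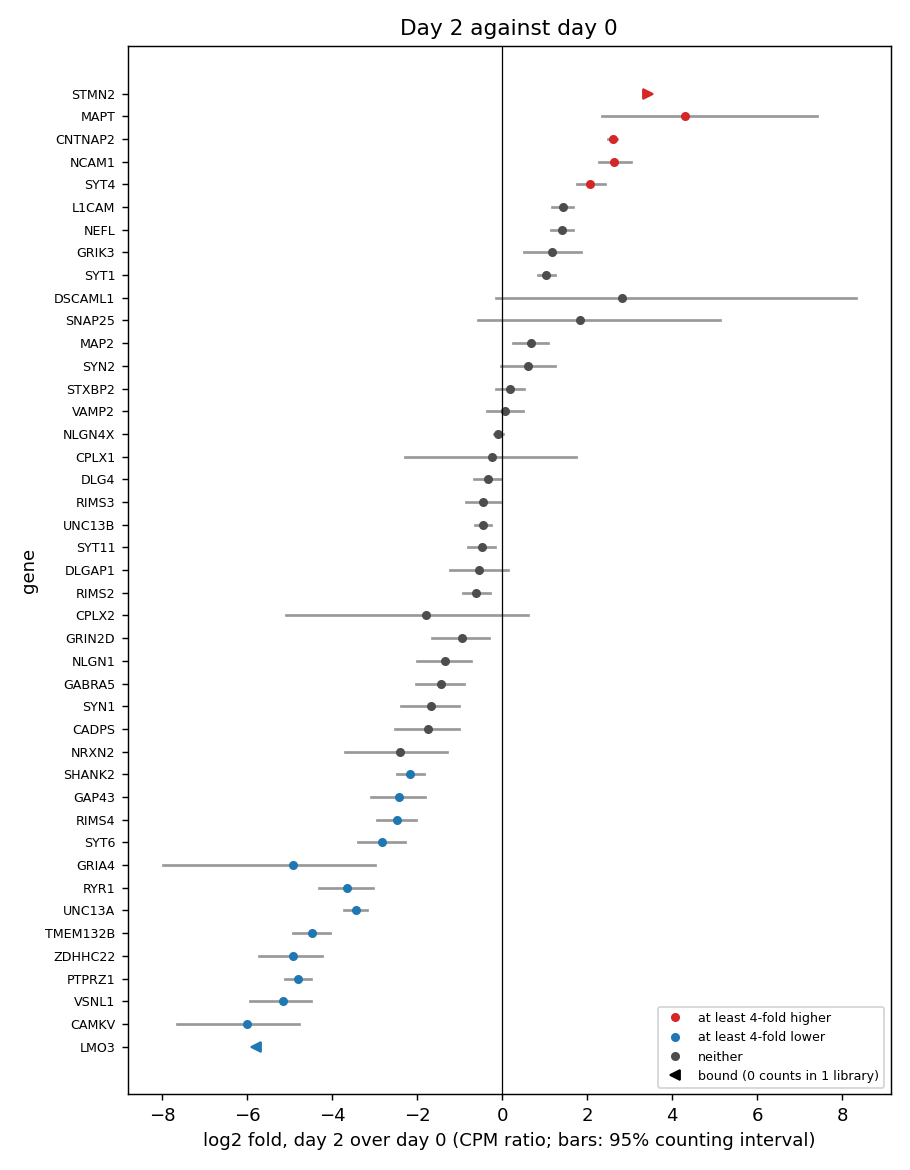
Day 2 over day 0 for the 43 genes: log2 of the CPM ratio (x axis) with 95% counting intervals (bars), ordered by the difference in log2(CPM + 1), and triangles for bounds where 1 library had 0 counts. The 13 blue points (at least 4-fold lower) and 5 red points (at least 4-fold higher) lie outside 0. Intervals cross 0 for DSCAML1, SNAP25, CPLX2, CPLX1, VAMP2, STXBP2, SYN2, NLGN4X and DLGAP1.

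In the release machinery, single members of gene families went separate ways. At day 2 the rule called 3 of its 17 genes lower (all genes: 1.93%) and 1 higher (all genes: 4.63%) than at day 0. At day 4 it called 6 lower (all genes: 3.44%) and 0 higher (all genes: 6.27%). UNC13A, the priming factor that makes vesicles ready to fuse, measured 280, 25.7, 22.8 and 6.18 CPM. It was 10.9-fold lower at day 2 (9.11 to 13.1) and 45.3-fold lower at day 4 than at day 0 (32.3 to 65.7). Its paralog UNC13B, which primes vesicles in a wider range of cells, stood at 102, 74.2, 72.5 and 69.6 CPM, 1.37-fold lower at day 2 (1.20 to 1.57). Per length the order of the pair turned round, from 28.8 FPKM for UNC13A and 16.1 FPKM for UNC13B at day 0 to 0.62 and 10.8 FPKM at day 4.

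The synaptotagmins, calcium sensors or calcium-independent regulators of fusion, also divided. SYT6 measured 45.8, 6.47, 8.5 and 3.27 CPM, 7.07-fold lower at day 2 (4.90 to 10.5). SYT4, a synaptotagmin of dense-core and constitutive vesicles, went the other way at first, with 18.8 CPM at day 0, 79.3 at day 2, 5.80 at day 3 and 0 counts at day 4. That is 4.21-fold higher at day 2 than at day 0 (3.37 to 5.31), then 13.7-fold lower from day 2 to day 3 (9.43 to 20.5). Its difference in log2(CPM + 1) at day 2, 2.02, lay just past the threshold of 2. SYT1, the fast calcium sensor of neurons, peaked on the same day with a smaller range, at 60.3, 123, 59.5 and 41.3 CPM, 2.04-fold higher at day 2 (1.78 to 2.35). SYT11, a relative of SYT4, stood between 25.1 and 40.5 CPM with its highest value at day 0.

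Among the RIM genes of the set, the short form gene RIMS4 had the largest range. It measured 51.4, 9.22, 2.13 and 0.363 CPM, 5.57-fold lower at day 2 (4.08 to 7.77) and 141-fold lower at day 4 than at day 0 (38.8 to 1174, with 2 counts at day 4). RIMS2 stood at 39.8, 26.1, 21.6 and 8.36 CPM, 4.76-fold lower at day 4 (3.44 to 6.70). The other short form gene, RIMS3, had 24.8, 18, 18 and 8.54 CPM and did not reach 4-fold in any comparison. All 3 had their lowest value at day 4.

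**Figure D3:**
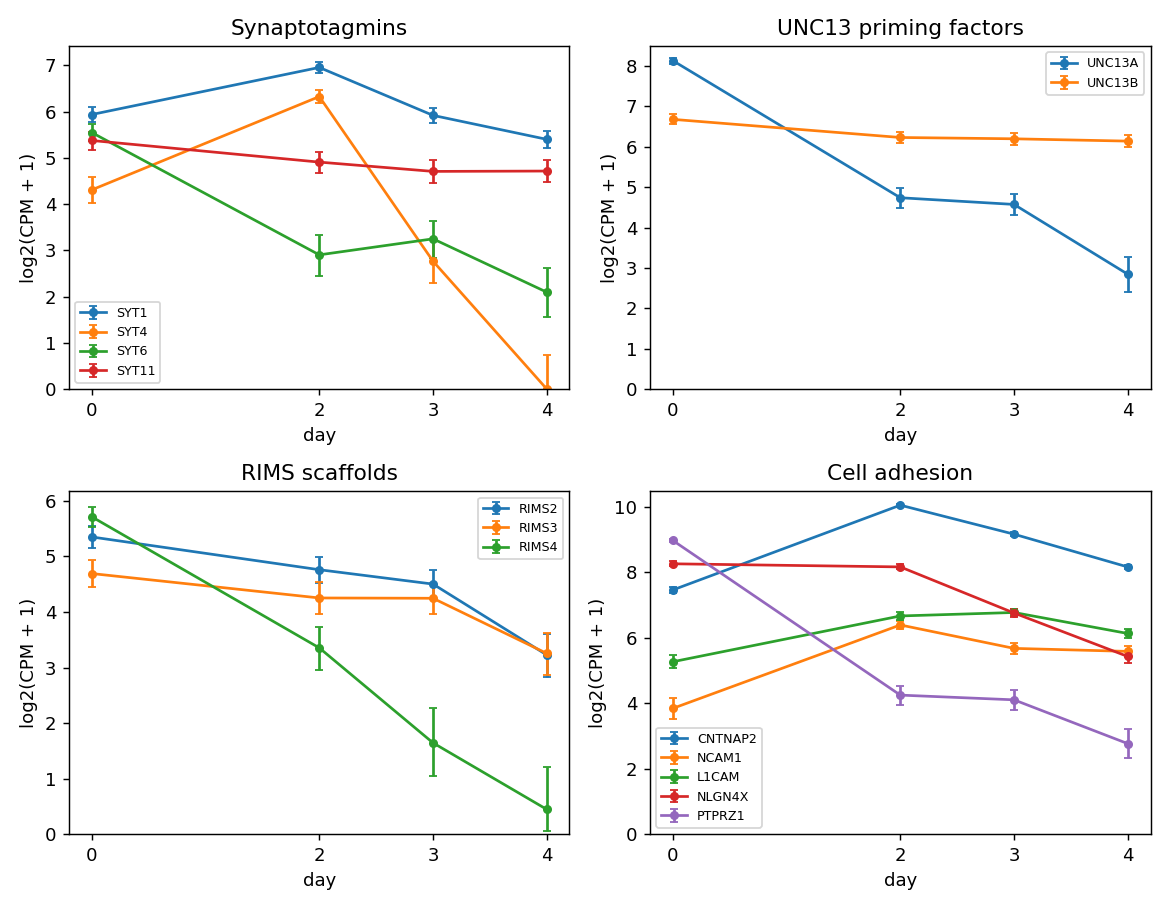
Level as log2(CPM + 1) (y axis) by day (x axis) for members of 3 release families and 5 adhesion genes; points are single libraries and bars are 95% Poisson counting intervals. UNC13A and RIMS4 drop below their paralogs, SYT4 and CNTNAP2 peak at day 2, and UNC13B and SYT11 are nearly level.

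No SNARE or SM gene of the set passed 4-fold. VAMP2, the vesicle SNARE, measured 19.0, 19.8, 18.9 and 31.1 CPM, 1.64-fold higher at day 4 than at day 0 (1.27 to 2.12). STXBP2, the SM protein of secretion in blood and epithelial cells, stood between 24.9 and 31.4 CPM. SNAP25, the neuronal membrane SNARE, was low throughout, at 2, 7, 12 and 18 counts on days 0, 2, 3 and 4. Its day 4 level of 3.27 CPM was 8.43-fold that of day 0 (2.02 to 75.0), but on the log2(CPM + 1) scale it did not pass the threshold.

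The vesicle-coating synapsins and the priming factor of dense-core vesicles come next. SYN1, which carries the RE1 letters above, had 15.7, 4.90, 5.60 and 3.09 CPM, 5.08-fold lower at day 4 than at day 0 (2.99 to 9.15). Its log2(CPM + 1) difference of -2.03 was close to the threshold. SYN2 had 6.98, 10.6, 4.64 and 2.91 CPM, and CADPS 13.8, 4.12, 7.34 and 7.63 CPM. Neither passed 4-fold. The complexins CPLX1 and CPLX2, clamps of the SNARE complex, had at most 7 counts in any library. CPLX2 had 7 counts at day 0 and 0 at day 4, and the CPM intervals of these days overlapped (0.546 to 2.80 and 0 to 0.670). The intervals of all CPLX1 comparisons crossed 1.

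Adhesion genes held the highest levels after day 0. CNTNAP2, a neurexin-related protein of axons, measured 176, 1063, 575 and 286 CPM. It was 6.05-fold higher at day 2 than at day 0 (5.64 to 6.5) and 3.71-fold lower at day 4 than at day 2 (3.51 to 3.93). Per length it ranked first of the 43 genes on days 2, 3 and 4, with 104, 57.2 and 28.7 FPKM, after PTPRZ1 had led at day 0 with 65.9 FPKM. NCAM1, a homophilic adhesion molecule of neurons, muscle and natural killer cells, had 13.4, 83.2, 50.2 and 47.1 CPM, 6.22-fold higher at day 2 (4.81 to 8.14). L1CAM, an axonal adhesion molecule, stood at 37.6, 101, 109 and 69.2 CPM, 2.68-fold higher at day 2 (2.27 to 3.18), which is under the threshold. These 3 genes were above their day 0 level on each later day.

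PTPRZ1, a receptor phosphatase of glia and neural progenitors, had the opposite course, with 503, 18, 16.2 and 5.82 CPM. It was 27.9-fold lower at day 2 (22.6 to 34.7) and 86.4-fold lower at day 4 than at day 0 (61.1 to 127). NLGN4X, a postsynaptic partner of neurexins, had nearly equal levels on days 0 and 2 and lower ones afterwards, at 306, 287, 107 and 42.2 CPM. Day 2 did not differ from day 0 beyond counting error (1.07-fold lower, 0.994 to 1.15), whereas day 4 was 6.80-fold lower than day 2 (5.92 to 7.85). NLGN1 measured 15.5, 6.08, 5.02 and 3.64 CPM. The neurexin gene NRXN2 had 43 counts at day 0 and 5 to 10 later, 9.18-fold lower at day 4 (3.64 to 29.7), and DSCAML1, a homophilic adhesion molecule, had at most 7 counts.

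Of the postsynaptic genes, 2 of 7 were called lower at day 2 than at day 0 (all genes: 1.93%), and 4 of 7 at day 4 (all genes: 3.44%). SHANK2, a master scaffold under glutamate receptors, measured 90.6, 20.2, 9.47 and 5.45 CPM, 4.48-fold lower at day 2 (3.61 to 5.60) and 16.6-fold at day 4 (11.5 to 24.9). GRIA4, an AMPA receptor subunit, went from 11.8 CPM at day 0 to 2, 0 and 3 counts on days 2, 3 and 4, 30.2-fold lower at day 2 (8.0 to 255). GABRA5, a GABA-A receptor subunit, had 20.9, 7.65, 2.71 and 2.91 CPM, 7.20-fold lower at day 4 (4.24 to 13.0). GRIK3, a kainate receptor subunit, was highest at day 2, at 5.62, 12.6, 4.25 and 0.545 CPM, and 23.0-fold lower at day 4 than at day 2 (7.53 to 115).

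The remaining 3 postsynaptic genes stayed within 4-fold. DLG4, the gene of the scaffold PSD-95, stood between 29.6 and 40.6 CPM. GRIN2D, an NMDA receptor subunit, had 11.4, 5.88, 7.92 and 12.4 CPM, with its lowest value at day 2. DLGAP1, a scaffold that links DLG4 to SHANK proteins, had 5.63 to 9.11 CPM.

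Cytoskeletal and growth cone genes were the only one of the 5 role groups with a positive median at day 4 against day 0, 0.53 in log2(CPM + 1) over 5 genes. STMN2, a microtubule-destabilizing protein of growing axons, had 0 counts at day 0, then 6.28, 35.2 and 30.9 CPM. Against a floor of 3 counts, day 4 was 53.1-fold above day 0, and the level was 5.60-fold higher at day 3 than at day 2 (3.83 to 8.44). Of the 38 genes that passed the filter in that step it was the only one called higher (all genes: 1.32%). SYT4 was the only one called lower in that step (all genes: 0.406%) and also from day 3 to day 4 (all genes: 0.228%), a step in which none was higher (all genes: 0.377%). NEFL, the light neurofilament, measured 32.6, 86.5, 91.8 and 47.6 CPM, 2.66-fold higher at day 2 (2.22 to 3.19). MAPT, the microtubule-binding tau protein, went from 2 counts to 7.65 CPM at day 2, 19.7-fold higher (5.11 to 169), and then to 3.67 and 2.73 CPM.

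GAP43, a growth cone protein, went down and part of the way back, at 27.5, 5.10, 3.87 and 11.1 CPM. It was 5.40-fold lower at day 2 than at day 0 (3.54 to 8.55) and 2.87-fold higher at day 4 than at day 3 (1.71 to 5.02). MAP2, a dendritic microtubule protein, had 16.1, 25.5, 26.5 and 7.45 CPM, with a 3.55-fold lower value at day 4 than at day 3 (2.49 to 5.17). In the step from day 2 to day 4, which shares its day 2 library with the first, STMN2 was the 1 of 39 passing genes called higher (all genes: 2.32%). Those called lower were 6, SYT4, RIMS4, NLGN4X, GRIK3, RYR1 and TMEM132B (all genes: 1.4%). A range of at least 2 in log2(CPM + 1) over the 4 days was found in 24 of the 43 genes. Of the 43, 18 had it with their highest value at day 0, and 5 at day 2 (SYT4, CNTNAP2, NCAM1, GRIK3 and MAPT). At day 3 it was 1, STMN2, and at day 4 it was 0. Among all 16085 genes of at least 1 CPM, 630 (3.92%) had such a range and their highest value at day 0. The numbers were 414 (2.57%) at day 2, 408 (2.54%) at day 3 and 684 (4.25%) at day 4. The 18 at day 0 follow in part from how the genes were picked.

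Transcript length is a readout that the choice of genes did not use: the deposited length of a gene is averaged over its transcripts, weighted by their estimated shares, and moves when those shares move. Among genes with more than 1 transcript and at least 20 counts in both libraries, it changed by at least 10% between day 0 and day 4 in 2 of 13 of the 43 genes and in 4.61% of 5317 genes. The other comparisons gave 1 of 19 between days 0 and 2 (all genes: 3.71%), 1 of 17 between days 2 and 3 (3.38%), 2 of 14 between days 3 and 4 (3.77%) and 1 of 14 between days 2 and 4 (4.2%). Counts of 1 or 2 genes are too few to set apart from these shares. MAP2 went from 6624 bp at day 0 to 6541, 6286 and 5651 bp on days 2, 3 and 4, on 41 to 137 counts. Its transcripts reach from 2241 to 9711 bp in GENCODE 29. PTPRZ1 went from 7731 to 7334, 6972 and 6845 bp, toward its short transcript of 4627 bp and away from the 8175 bp one. The 32 counts of PTPRZ1 at day 4 limit this estimate, and the files give no error for it. DLGAP1, with 8 transcripts and 31 to 47 counts, went up and down (5382, 5988, 5142 and 5694 bp). NRXN2 was below the count limit. It was listed at 5226 bp at day 0 and at exactly 3535 bp, the length of its shortest transcript, on all 3 later days.

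Other genes of the same machinery gave the counts below. For these and the next lists, the shares over all genes against day 0 were 1.93% lower and 4.63% higher at day 2. At day 4 they were 3.44% lower and 6.27% higher. Among 37 further release genes the rule called 3 lower and 0 higher at day 2 than at day 0, with a median of -0.29, and 10 lower at day 4, with a median of -0.42. Those 10 included SYT2, a fast calcium sensor (89.2, 13.5, 9.66 and 7.09 CPM), SYP, the vesicle protein synaptophysin (11.4, 0.588, 0.387 and 0.363 CPM), SYT3 (10.5, 2.16, 0.580 and 0.545 CPM) and SYT13 (21.9, 6.08, 3.87 and 2.18 CPM). Of 35 other postsynaptic and adhesion genes, 2 were lower and 1 higher at day 2, and 5 lower and 1 higher at day 4. Among them the scaffold gene DLGAP3 had 19.6, 7.65, 2.32 and 0.909 CPM. GABRB2, a GABA-A receptor subunit, was the 1 called higher at day 2, with 1.16, 17.7, 4.06 and 1.45 CPM.

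Of the other cytoskeleton and axon genes, 4 of 22 were lower and 2 higher at day 2, and 5 of 23 lower and 2 higher at day 4. The adhesion genes CHL1 (0.388, 81.8, 55.3 and 15.4 CPM) and NRCAM (7.76, 54.7, 124 and 68.3 CPM), both relatives of L1CAM, were the higher ones. CNTN1, a GPI-linked axonal adhesion molecule (16.9, 0.588, 1.16 and 0.545 CPM), and DPYSL3, which acts on actin and microtubules in growth cones (1002, 87.3, 142 and 189 CPM), were lower. Voltage-gated channel genes, the nearest other class of neuronal genes, had 5 of 25 lower and 2 higher at day 2 and 6 of 26 lower and 2 higher at day 4. CACNA2D2, an auxiliary calcium channel subunit, was among the higher ones with 14.2, 111, 223 and 86.7 CPM, and SCN9A, a sodium channel (15.5, 0.981, 2.13 and 1.82 CPM), among the lower ones. CACNB4, a calcium channel subunit, had 9.70, 1.37, 0.387 and 0.363 CPM, and KCNMA1, a potassium channel, 9.70, 1.77, 16.4 and 17.8 CPM. Whether these shares differ between the lists was not tested.

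Core pluripotency genes had 5 of 11 lower at day 2 and 8 of 11 at day 4. SOX2 went from 286 CPM to 0.785, 0.773 and 1.27 CPM, USP44 from 319 to 5.49, 4.25 and 2.36 CPM, PRDM14 from 86.9 to 2.16, 5.99 and 4.18 CPM, and DNMT3B from 2930 to 400, 272 and 183 CPM. The list of REST and its corepressors had 0 of 9 genes called in either comparison. REST measured 115, 181, 194 and 117 CPM, 1.58-fold higher at day 2 than at day 0 (1.42 to 1.75). Its corepressors RCOR1 (53.1, 99.5, 92.6 and 74.7 CPM) and RCOR3 (36.1, 64.1, 82.3 and 61.1 CPM) had their lowest value at day 0. RCOR2 (78.9, 77.9, 50.2 and 45.8 CPM) and the methyltransferase gene EHMT2 (184, 99.3, 96.4 and 98.1 CPM) had their highest value there. So did SIN3A, HDAC2 and KDM1A, while HDAC1 was highest at day 4. The part of REST in the results above was not tested.

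**Figure D4:**
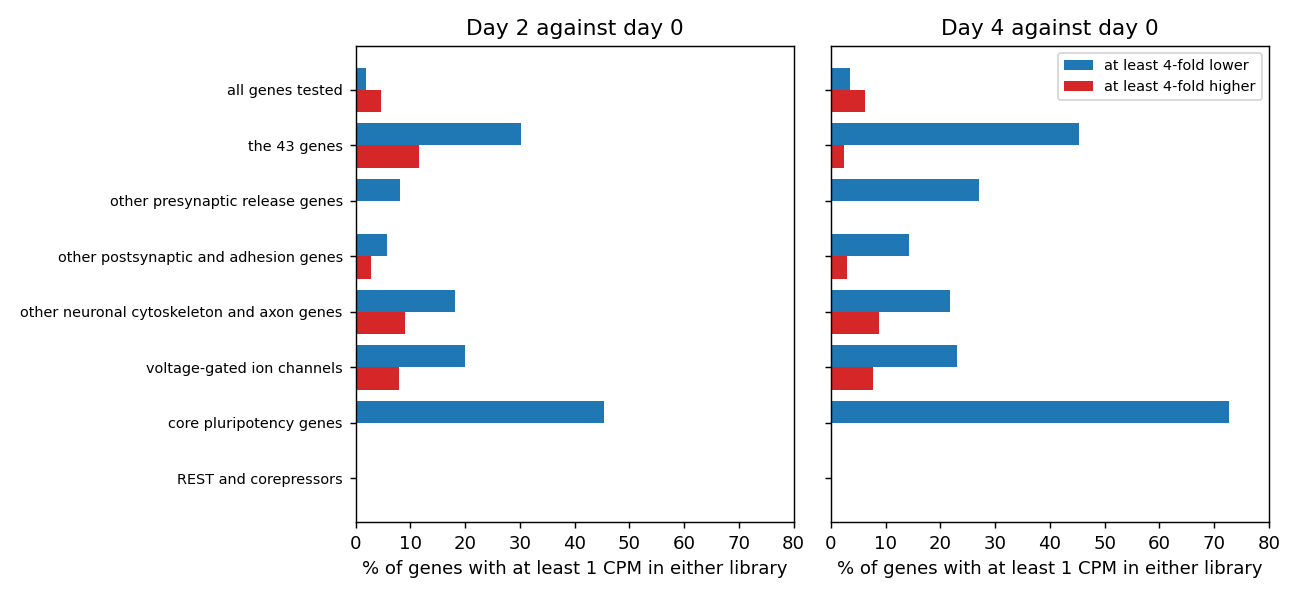
Share of genes at least 4-fold lower (blue) or higher (red), in % of genes that passed the 1 CPM filter, for all genes, the 43 genes and 6 other lists, at day 2 (left) and day 4 (right) against day 0. The 43 genes have 30.2% lower at day 2 and 45.2% at day 4, between the core pluripotency list (45.5% and 72.7%) and the remaining lists.

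The label of neuronal-type genes was set against cell type markers. Of 16 markers of postmitotic neurons, 9, 8, 10 and 10 had 3 counts or fewer on days 0, 2, 3 and 4. NEUROD1 and NEUROD6 had 0 counts in every library, which allows up to 0.545 to 0.588 CPM. ELAVL3 had at most 2 counts, and the transmitter genes SLC17A6, GAD2 and SLC32A1 at most 3. GAD1, an enzyme of GABA synthesis, went the other way, with 0.388, 14.1, 59.7 and 84.0 CPM. The summed level of the list was 251.5, 161, 251.6 and 295 CPM, of which TUBB3, a neuronal beta-tubulin already present in the undifferentiated library, gave 182, 116, 155 and 183 CPM. RBFOX3 measured 11.4, 2.55, 1.35 and 1.27 CPM and DCX 11.1, 5.69, 7.54 and 2.00 CPM, both highest at day 0. Of 8 passing markers, 1 was called higher (all genes: 4.63%) and 1 lower (all genes: 1.93%) at day 2 than at day 0. Of 7 at day 4, the rule called 1 higher (all genes: 6.27%) and 3 lower (all genes: 3.44%). Of the list, 4 genes (SYP, DCX, TUBB3 and INA) also stand in the lists above. The list thus holds both markers at or near 0 and markers with clear counts, and the 43 genes are called neuronal-type only by what they are known for.

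Neural progenitor markers summed to 695, 866, 726 and 737 CPM, with the largest part from NES on every day and 286 CPM from SOX2 at day 0. NES is a filament gene also of mesodermal and endothelial cells and had 348, 769, 676 and 712 CPM. SOX1, NEUROG1 and NEUROG2 had 0 counts in every library and OTX2, a head patterning factor, had 34.7, 87.1, 42.5 and 17.6 CPM. FABP7, a radial glia gene, had 25.0, 4.51, 3.67 and 4.00 CPM. Glia and neural crest markers summed to 109, 41.2, 29.8 and 20.4 CPM. FOXD3, a factor of stem cells and neural crest, had 14.5 CPM at day 0 and 0 counts later. Skeletal muscle markers summed to 32.2, 70.6, 17 and 11.8 CPM. Against day 0 the rule called 2 of 5 progenitor markers and 2 of 6 glia and crest markers lower on both days. Of the muscle markers, 0 of 4 were lower at day 2 and 1 of 3 at day 4. Over all genes, 1.93% were lower at day 2 and 3.44% at day 4. The part of these cell types in the results was not tested, and in bulk RNA fewer cells of a type and less RNA per cell cannot be told apart.

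**Figure D5:**
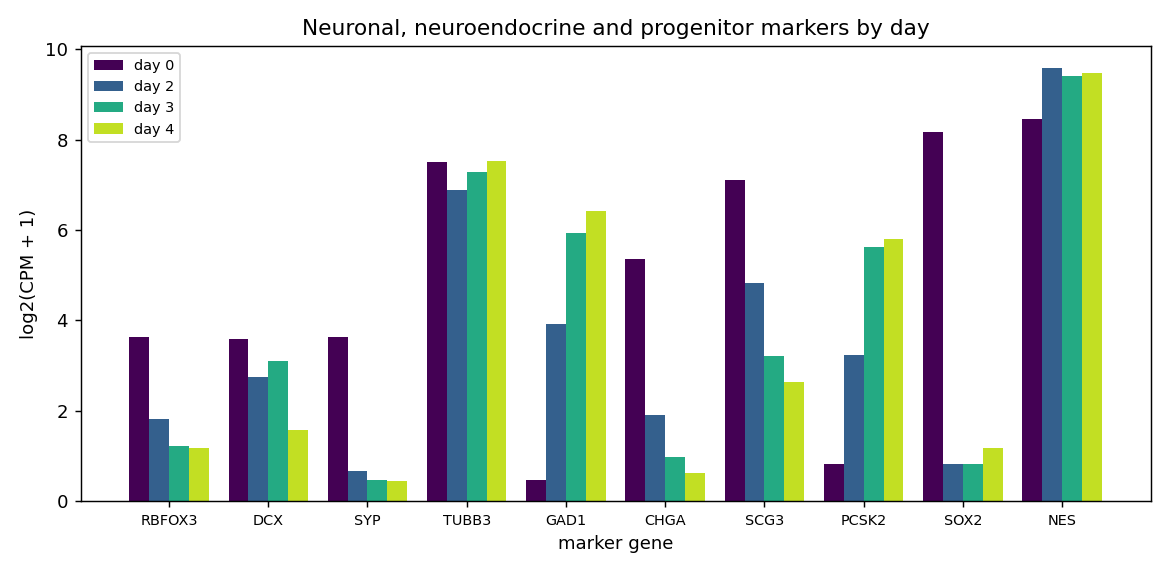
Level as log2(CPM + 1) (bars, starting at 0) of 10 marker genes in the libraries of days 0, 2, 3 and 4. RBFOX3, SYP, CHGA, SCG3 and SOX2 are highest at day 0, GAD1 and PCSK2 climb to 84.0 and 55.1 CPM at day 4, and TUBB3 is nearly level.

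Counts of 7 of the 43 genes were not whole (SYT11, UNC13A, UNC13B, NLGN4X, CNTNAP2, VSNL1 and ZDHHC22), so some of their reads were shared out between similar sequences and their levels are less certain than the intervals say. The spans of 13 genes overlap another listed gene in RefSeq, among them SYN1 with TIMP1 and LMO3 with MGST1. Whether counting used strand is not stated, so reads of such pairs may not be told apart.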

How the data were processed

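Per the labels' protocols, Trizol was used for RNA and a TruSeq RNA kit for the libraries; the RNA selection is not given in the sources used here. BWA, Bowtie, RSEM and hg19 are named in the submitters' processing notes, without versions or roles. The authors deposited, per the file headers, an expected count per Entrez gene (an estimated count, which shares out reads that fit several genes), FPKM (per transcript length and depth, used to compare levels between genes and as 1 alternative) and a transcript length. Symbols came from RefSeq for 19273 of 19390 gene IDs. Genes that a library's file does not list were given 0 counts. Expected counts were rounded and scaled with TMM factors (edgeR 4.0.16, R 4.3.3); other steps used Python 3.11.15 with scipy 1.17.1. With 1 library per day there is no test, only the 4-fold rule on log2(CPM + 1). Folds are CPM ratios with exact conditional binomial 95% intervals. Intervals of CPM are exact Poisson ones. Neither covers more than counting error. The floor for 0 counts is 3 counts per library. Folds against this floor have no interval and leave out the counting error of the other library. The rule and the intervals were tested on simulated counts. These held counting error only, so they cannot show how the rule behaves with a spread between cultures.

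The 43 genes and all lists were chosen with earlier results of these data known. The lists were other release, postsynaptic and adhesion, cytoskeleton and axon, voltage-gated channel, core pluripotency and REST genes, and markers of neurons, neural progenitors, glia and neural crest, neuroendocrine cells and skeletal muscle. Members of at least 10 CPM were named with every day's value or their range, and of each other list up to 4 genes of at least 5 CPM with the largest range; other names were added for what they define. Alternatives were pseudocounts of 0.1 and 5, median-of-ratios factors (DESeq2 1.42.0), library totals, no filter, a minimum of 5 CPM, and the deposited FPKM. Some genes of these lists are not reported here by name.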

Additional observations from a re-analysis of the deposited data

How the results depend on the processing

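No paired analysis was possible because each day is 1 library. The counts and medians of the 43 genes had 105 alternative values. Of these, 90 stayed within 1.5 times the reported count or, for a median, within the counting interval of its middle genes. That interval is the counting error of the middle genes and not an error of the median itself. Median-of-ratios factors, library totals and no filter moved no count or median past these limits. For the counts without a filter this was fixed in advance, as a gene under 1 CPM in both libraries cannot reach the 4-fold rule. Those counts are among the 90. Library totals gave 4 in place of 5 higher at day 2 against day 0. None of 594 alternative folds of single genes (other factors, library totals or FPKM) left its counting interval. Other factors or totals move all folds of a comparison by 1 shared amount, so these are not separate checks of each gene. With a pseudocount of 5, genes called higher were 2 at day 2 against day 0, 0 from day 2 to day 3 and 0 from day 2 to day 4; genes called lower were 0 from day 3 to day 4 and 2 from day 2 to day 4, where the median became -0.51. With a pseudocount of 0.1, genes called lower were 2 from day 2 to day 3 and 5 from day 3 to day 4, and at day 4 against day 0 genes called higher were 3 and the median became -2.11. The deposited FPKM gave 2 higher at day 2 against day 0, 0 lower from day 3 to day 4, and 0 higher and 2 lower from day 2 to day 4. A minimum of 5 CPM, which tests fewer genes, gave a median of -1.93 at day 4 against day 0. A larger pseudocount lowers every difference by construction. Over all genes, the count called lower at day 2 was 676 and 112 with pseudocounts of 0.1 and 5, against 297. Depth limits genes of a few counts, such as CPLX1, CPLX2, DSCAML1 and SNAP25.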

Other observations

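Neuroendocrine secretion genes, a class close to the synaptic genes, were highest at day 0 with 1 exception. Against day 0, the 4-fold rule called 4 of 7 passing markers lower at day 2 (CHGA, CHGB, SCG3 and SCG5) and 4 of 7 at day 4 (CHGA, CHGB, SCG3 and PCSK1). Over all genes these shares were 1.93% and 3.44%. On both days 1 was higher (all genes: 4.63% and 6.27%). CHGA, a granule core protein gene, measured 40.3, 2.75, 0.966 and 0.545 CPM on days 0, 2, 3 and 4, SCG3, a secretogranin gene, 136, 27.3, 8.31 and 5.27 CPM, and CHGB 10.3, 0.392, 0.387 and 0.363 CPM. PCSK2, a protease that matures peptide hormones, was the exception, with 0.776, 8.44, 48.5 and 55.1 CPM, 71.0-fold higher at day 4 than at day 0 (95% counting interval 27.4 to 262).

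GAD1, the enzyme gene of GABA synthesis, also went up, from 0.388 CPM at day 0 to 14.1, 59.7 and 84.0 CPM, 216-fold higher at day 4 (59.6 to 1793, on 2 counts at day 0). Its paralog GAD2 had 3 counts at day 0 and 0 later, and the vesicular GABA transporter gene SLC32A1 had at most 2 counts in any library.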
